A study of Mus musculus with 6 samples.

Results

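The 10 genes described here are markers of the endothelium of the liver, read on arrays of normal livers and liver tumors of C3H mice. They were chosen by name, with earlier results of these data known. Every non-control probe whose gene name on the array, or whose current name through its accession, was one of the 10 was taken. Of these genes, 7 mark the endothelium of the sinusoids (Stab1, Stab2, Lyve1, Clec4g, Fcgr2b, Oit3 and Gpr182). The other 3 mark endothelium in general or capillaries (Pecam1, Cdh5 and Plvap). The 10 genes were read by 13 probes, 8 genes by 1 probe each and 2 genes by more than 1, out of 18566 genes tested. All 13 probes were well above background on all 6 arrays, so that none of the 10 was lost to the filter on dim probes.

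The sinusoids are the wide capillaries through which blood passes between the plates of hepatocytes. Their endothelial cells have open pores and no continuous basement membrane, and they carry a set of scavenger and lectin receptors that take up waste molecules and immune complexes from the blood. When sinusoidal endothelium is lost or changes its character, these receptors decrease, and genes of ordinary capillaries and a basement membrane appear. This change is known as capillarization and is known from hepatocellular carcinoma and from fibrotic liver. The comparison asks which of the 2 sets of markers differed between tumor and normal liver.

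Total RNA from 3 normal livers and 3 macroscopic liver tumors was labelled with Cy3 and hybridised to 1-color SurePrint G3 Mouse GE arrays, 1 array for each tissue. All 6 tissues were from male C3H/HeN mice of 74 to 75 weeks, second-generation pups of the control group of an arsenic study, which ate a standard diet (CA-1). The tumors arose without treatment and, by the study's methods, had a mutation of Ha-ras. The whole tissue was used, so a lower level of a marker can mean fewer cells that express it or less RNA in each of them, and these cannot be told apart.

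The unit used throughout is the expression value, the processed signal of a probe divided by the 75th percentile of its array. This percentile was 124 to 177 intensity units in normal livers and 171 to 183 in tumors, and 44.7% to 48.9% of the spots were well above background. All normal livers lay on 1 slide and all tumors on another, with a local background of 42 to 45 on the former and 22 to 23 on the latter (medians over spots), and the effect of the slide cannot be told apart from that of the tissue. A gene was called where limma's adjusted p over all tested probes was under 0.05, and 21.0% of all genes tested were called lower and 13.1% higher in tumors. The median log2 fold change of all genes was -0.13 on this scale, -0.04 after quantile normalization and 0.03 with scaling by the spike-in controls, so a small log2 fold change near these values has no settled sign. Levels are compared within a probe, since the brightness of different probes is not on 1 scale. Sums over a list are given only as a description, and bright probes weigh most in them.

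All called differences were in the sinusoidal set, and they ran in both directions. Of the 7 sinusoidal genes, 2 were called lower in tumors (Stab2 and Clec4g), 1 was called higher (Stab1) and 4 were not called. Of the 3 pan or capillary genes, each read by its brightest probe, 0 were called in limma. By these probes, 0 had an unadjusted p under 0.05 in limma or in the methods' t-test, paired or unpaired. The median log2 fold change was -0.10 for the sinusoidal genes and -0.01 for the pan or capillary genes, beside -0.13 for all genes. The shares called, 2 of 7 lower and 1 of 7 higher, were near the 21.0% and 13.1% of all genes. These counts, and the 0 of 3 in the other set, therefore do not set the markers apart from genes in general.

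**Figure D1:**
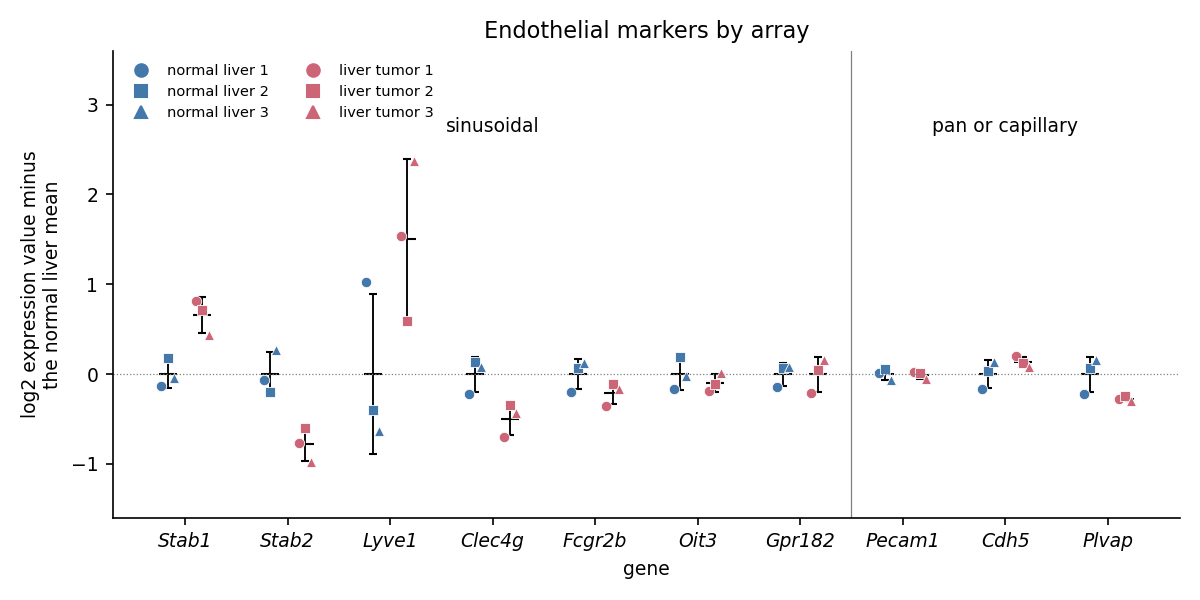
Expression of the 10 markers on each array. The vertical axis is the log2 expression value minus the mean of the 3 normal livers for that gene, each symbol is 1 array, and the horizontal tick and bar are the mean and SD of a group (n = 3). Stab1 lies above and Stab2 and Clec4g lie below the normal livers in all 3 tumors, Lyve1 is spread most, and Pecam1 is nearly level.

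The bases upstream of the 3 called genes are shown because all 3 are expressed in sinusoidal endothelium yet differed in direction by brightest probe. The sequences lie directly outside the gene's annotated 5′ end in RefSeq annotation of GRCm38.p6 and are written 5′ to 3′ on the strand of the gene, 240 bases for Stab1, 154 for Stab2 and 206 for Clec4g, and capitals mark 2 kinds of motif that were searched on both strands. One is the GATA motif, spelled AGATAA or AGATAG or, with another first base, TGATAA or TGATAG, and the other is the ETS motif, spelled AGGAAG or CGGAAG, and a motif on the opposite strand appears as its reverse complement, such as CTTCCT. Both are motifs of factor families that act in endothelial cells.
Stab1 (chr14:31168652-31168891, minus strand): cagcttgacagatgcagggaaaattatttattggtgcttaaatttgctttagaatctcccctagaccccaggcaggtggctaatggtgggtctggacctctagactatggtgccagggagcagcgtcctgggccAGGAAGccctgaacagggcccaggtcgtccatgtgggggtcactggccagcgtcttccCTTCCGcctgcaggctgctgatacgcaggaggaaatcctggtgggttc
Stab2 (chr10:87008039-87008192, minus strand): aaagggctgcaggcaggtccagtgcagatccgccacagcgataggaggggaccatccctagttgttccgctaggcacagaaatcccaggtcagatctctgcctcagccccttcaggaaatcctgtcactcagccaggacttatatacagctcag
Clec4g (chr8:3720696-3720901, minus strand): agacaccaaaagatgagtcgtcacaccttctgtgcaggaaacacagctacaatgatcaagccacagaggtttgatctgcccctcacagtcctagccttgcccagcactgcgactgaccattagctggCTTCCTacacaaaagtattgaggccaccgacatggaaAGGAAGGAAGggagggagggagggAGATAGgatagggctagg

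The Stab1 sequence held 2 ETS motifs, with first bases 106 and 48 bases upstream of the gene, and 0 GATA motifs. The Stab2 sequence held neither motif. The Clec4g sequence held 3 ETS motifs, of which 2 overlap, and 1 GATA motif 18 bases upstream. The 250 bases upstream of Fcgr2b, the only other member for which a sequence was used, also held neither. Among 32536 upstream sequences of the same length, an ETS motif stood in 37.7% at the length used for Stab1, 24.0% for Stab2, 32.2% for Clec4g and 39.3% for Fcgr2b, and a GATA motif in 25.9%, 18.9%, 23.5% and 26.5%. The 32536 sequences were matched in length but not in distance from the annotated gene. Bases inside a gene were left out only for the members. Both motifs are thus common, and a match of letters does not show that a factor binds there.

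Stab1 and Stab2 encode stabilin-1 and stabilin-2, large scavenger receptors of similar build. Stab2 is the hyaluronan receptor of sinusoidal endothelium, and Stab1 is expressed by the same cells and also by macrophages. On the arrays Stab1 was higher in tumors and the brightest probe of Stab2 was lower. The dimmer probes of Stab2 did not differ by more than the spread of the arrays.

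Stab1 (chr14:31139017-31168651) had expression values of 6.64, 8.22 and 7.04 in the normal livers and 12.8, 11.9 and 9.80 in the tumors. All 3 tumors lay above all 3 normal livers. The mean rose from 7.30 ± 0.818 to 11.5 ± 1.55 (SD, n = 3), which is 0.66 on the log2 scale (SE 0.15, adjusted p = 0.0185 in limma). It was called higher under normexp background correction, quantile normalization and spike-in scaling as well, at log2 fold changes of 0.70 to 0.81. With 1 array left out it was called in 3 of 6 runs, and the adjusted p was 0.0583 without normal liver 1, 0.0562 without normal liver 3 and 0.0585 without tumor 2.

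Stab2 (chr10:86841194-87008038) was read by 3 probes. Its brightest probe, the only one designed on the RefSeq transcript, had values of 26.9, 24.5 and 34.0 in the normal livers and 16.6, 18.5 and 14.3 in the tumors. All 3 tumors lay below all 3 normal livers. The mean fell from 28.5 ± 4.93 to 16.5 ± 2.14 (SD, n = 3), which is -0.78 on the log2 scale (SE 0.17, adjusted p = 0.0154 in limma). It was called in all 6 runs with 1 array left out, at adjusted p values from 0.0271 to 0.0406, but with spike-in scaling it was -0.63 with an adjusted p of 0.104.

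The 2 dimmer probes of Stab2 were designed on other transcripts of the gene, and neither differed between the groups by more than the spread of the arrays. The first of them had values of 1.03, 1.43 and 1.62 in normal livers and 1.50, 1.77 and 1.08 in tumors. The other had values of 0.790, 0.811 and 0.644 in normal livers and 0.904, 0.885 and 0.542 in tumors. The groups overlapped in both, with log2 fold changes of 0.09 (adjusted p = 0.807) and 0.02 (adjusted p = 0.947) in limma. With the mean of the 3 probes in place of the brightest, the log2 fold change of Stab2 was -0.22 with an adjusted p of 0.368, so that the fall of Stab2 rests on the probe of its RefSeq transcript.

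The first 30 of the 60 bases of the 4 stabilin probes are shown because the probes of 1 gene gave different answers, with no letters capitalised. Their positions on mm9, the build named in the header of the arrays, place both other Stab2 probes 77.5 and 151 kb from the brightest one.
Stab1: ctcaaggtcaaatgatgagctggaatgaag
Stab2, brightest probe (chr10:86303982-86304041): taagcaccaaaggcaaggcttcatcccata
Stab2, probe 2 (chr10:86381487-86381546): ggcctctgtcatatgtgacctcacatacat
Stab2, probe 3 (chr10:86455257-86455316): tataatgcctgactctgggaacaagcaaac

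The longest run of bases shared by the Stab1 probe and any Stab2 probe was 5 over the full length of the probes.

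Clec4g, a C-type lectin of sinusoidal endothelium also called LSECtin, was also lower in tumors. The values of Clec4g (chr8:3707066-3720695) were 42.2, 54.2 and 52.2 in the normal livers and 30.3, 38.8 and 36.4 in the tumors. The groups did not overlap, and all 3 tumors were lower. The mean fell from 49.5 ± 6.45 to 35.1 ± 4.37 (SD, n = 3), which is -0.49 on the log2 scale (SE 0.15), and the adjusted p of 0.0496 in limma was only just under the threshold. It was 0.107 with normexp, 0.125 with quantile normalization and 0.438 with spike-in scaling, and Clec4g was called in 1 of 6 runs with 1 array left out, the one without normal liver 1.

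Lyve1 encodes a hyaluronan receptor of sinusoidal and lymphatic endothelium, which some macrophages also carry. The values of Lyve1 (chr7:110850607-110862953) were 0.913, 0.342 and 0.291 in the normal livers and 1.31, 0.675 and 2.33 in the tumors. The groups overlapped, because normal liver 1 was above tumor 2. The log2 fold change was 1.50, the largest of the 10 in size, with an SE of 0.58 and a 95% interval from 0.11 to 2.89, and it was not called (adjusted p = 0.0913 in limma). The SD within groups was 0.89 on the log2 scale, above that of 98.2% of all genes tested, whose median was 0.19. Without normal liver 1 the log2 fold change was 2.01 with an adjusted p of 0.0443, and with spike-in scaling it was 1.66 with an adjusted p of 0.00672. Both are alternative settings, and Lyve1 was not called in the others that kept all 6 arrays.

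**Figure D2:**
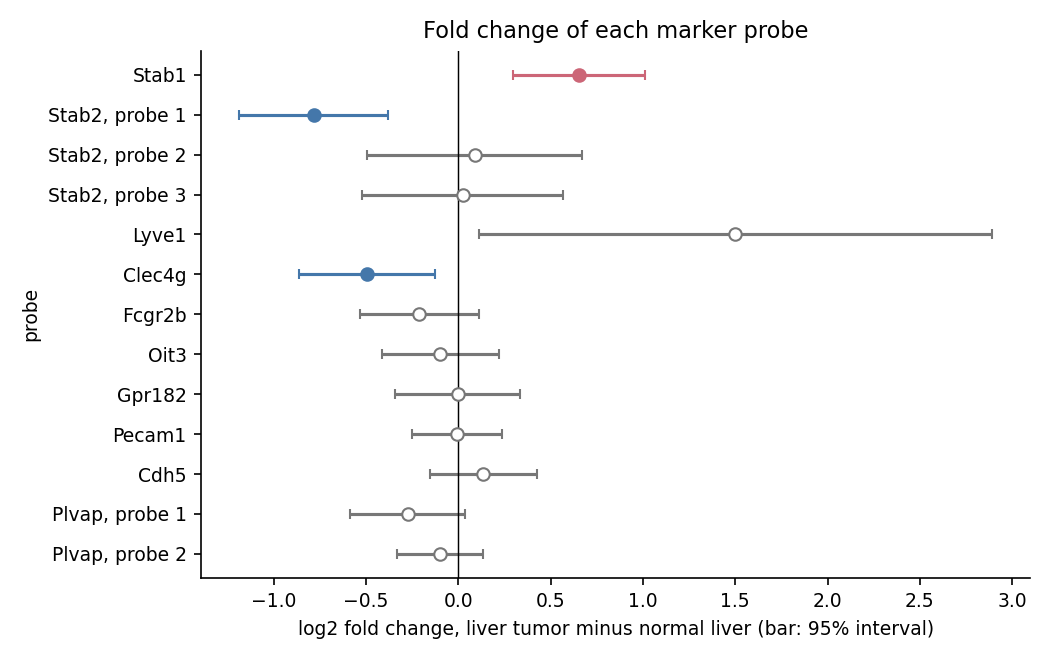
Fold change of each probe of the 10 markers. The horizontal axis is the log2 fold change, tumor minus normal liver (n = 3 each), bars are 95% intervals of limma's fit, filled symbols were called (red higher, blue lower) and open symbols were not. The brightest probe of Stab2 is at -0.78 while its 2 other probes are at 0.09 and 0.02, and the interval of Lyve1 is the widest.

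The other 3 sinusoidal markers were not called under limma with any scaling. Fcgr2b encodes the inhibitory Fc receptor with which sinusoidal endothelium clears immune complexes, and B cells and macrophages also express it. Fcgr2b (chr1:170960558-170976071) had values of 2.60, 3.13 and 3.24 in normal livers and 2.33, 2.76 and 2.65 in tumors. The groups overlapped, and the log2 fold change was -0.21 with a 95% interval from -0.53 to 0.11 (adjusted p = 0.272). This probe stood in 9 or 10 usable spots on each array, whose coefficient of variation was 4.19% to 6.71%. A fall of the mean to below 0.691-fold lies outside the 95% interval. Other Fc receptor genes resemble Fcgr2b in sequence, and whether they bind to its probe was not tested.

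Oit3 encodes a secreted protein with a zona pellucida domain that is found in liver and is used as a marker of sinusoidal endothelium. The values of Oit3 (chr10:59422960-59441779) were 4.34, 5.53 and 4.79 in normal livers and 4.26, 4.52 and 4.89 in tumors. The groups overlapped, with a log2 fold change of -0.10 and a 95% interval from -0.41 to 0.22 (adjusted p = 0.607). Gpr182 (chr10:127749602-127751798), an atypical chemokine receptor of sinusoidal and lymphatic endothelium, had values of 12.8, 14.8 and 15.0 in normal livers and 12.2, 14.6 and 15.8 in tumors. Its means were equal within 1%, 14.2 ± 1.23 and 14.2 ± 1.84 (SD, n = 3), and the 95% interval of the fold reached from 0.790 to 1.26 (adjusted p = 0.990). A change of Gpr182 as large as that of the brightest Stab2 probe, to 0.581-fold, was outside this interval.

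Pecam1 and Cdh5 encode CD31 and VE-cadherin, adhesion molecules at the contacts of endothelial cells, and Plvap encodes a protein of the diaphragms that close the pores of capillaries. Pecam1 (chr11:106654213-106715281) was the most even of the 10, with values of 0.438, 0.454 and 0.416 in normal livers and 0.443, 0.440 and 0.418 in tumors. Its log2 fold change was -0.01 with a 95% interval from -0.25 to 0.23, and the 2 spots of its probe differed by a coefficient of variation of 3.64% to 21.5% within an array. Cdh5 (chr8:104101613-104144504) had values of 1.99, 2.30 and 2.46 in normal livers and 2.57, 2.45 and 2.37 in tumors. The groups overlapped, at a log2 fold change of 0.14 with a 95% interval from -0.15 to 0.43 (adjusted p = 0.426).

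Plvap (chr8:71497753-71511806) had values of 7.30, 8.89 and 9.43 in normal livers and 7.01, 7.18 and 6.89 in tumors. All 3 tumors were below all 3 normal livers, but the log2 fold change of -0.27 was not called (95% interval from -0.58 to 0.04, adjusted p = 0.151). A dimmer probe of Plvap was also lower in every tumor, with values of 1.06, 1.06 and 1.08 in normal livers and 0.974, 0.989 and 1.04 in tumors, and a log2 fold change of -0.10 (adjusted p = 0.480). Counting genes by overlap, 3 of the 10 markers had all tumors below all normal livers (Stab2, Clec4g and Plvap), beside 33.5% of all genes tested, and 1 had all tumors above (Stab1), beside 18.3%. For these 4 genes the exact permutation test gave p = 0.1, the smallest that 3 against 3 arrays allow.

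Normexp and quantile normalization can change the ratio of 2 probes on the same array. Scaling by 1 factor per array moves all log2 fold changes together and leaves this ratio as it was. The ratio of Stab1 to Stab2, a pair chosen after its values were seen, was examined for this reason. Set to 0 for the mean of the normal livers, the log2 ratio of Stab1 to the brightest Stab2 probe was -0.06, 0.38 and -0.32 in the normal livers and 1.58, 1.32 and 1.41 in the tumors. All 3 tumors were higher, by 1.44 on average, which is a 2.71-fold change of the ratio. The ratio of Stab1 to Clec4g changed 2.22-fold in the same direction. Its log2 ratios of 1.52, 1.06 and 0.87 in the tumors were above the -0.13 to 0.09 of the normal livers. In all 3 tumors Stab1 was higher, and the brightest Stab2 probe and Clec4g were lower. The lack of overlap in both ratios was therefore fixed in advance, and it adds no independent support. The dimmer Stab2 probes, which were level, were not part of these ratios.

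Set against Cdh5, which was not called, the log2 ratio of Stab2 was -0.96, -0.73 and -1.06 in the tumors and -0.24 to 0.14 in the normal livers. The ratio of Clec4g to Cdh5 was -0.90, -0.47 and -0.52 in the tumors and -0.05 to 0.10 in the normal livers. The ratio of Stab1 to Cdh5 was 0.62, 0.59 and 0.35 in the tumors and -0.18 to 0.14 in the normal livers. In each of these 3 ratios the groups did not overlap, which restates the differences of Stab1, Stab2 and Clec4g that prompted them and adds no independent support. The groups overlapped in the ratio of Clec4g to Stab2, at 0.06, 0.26 and 0.55 in the tumors and -0.19 to 0.34 in the normal livers. A ratio within an array shows that 2 genes changed unequally and not which of them changed.

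**Figure D3:**
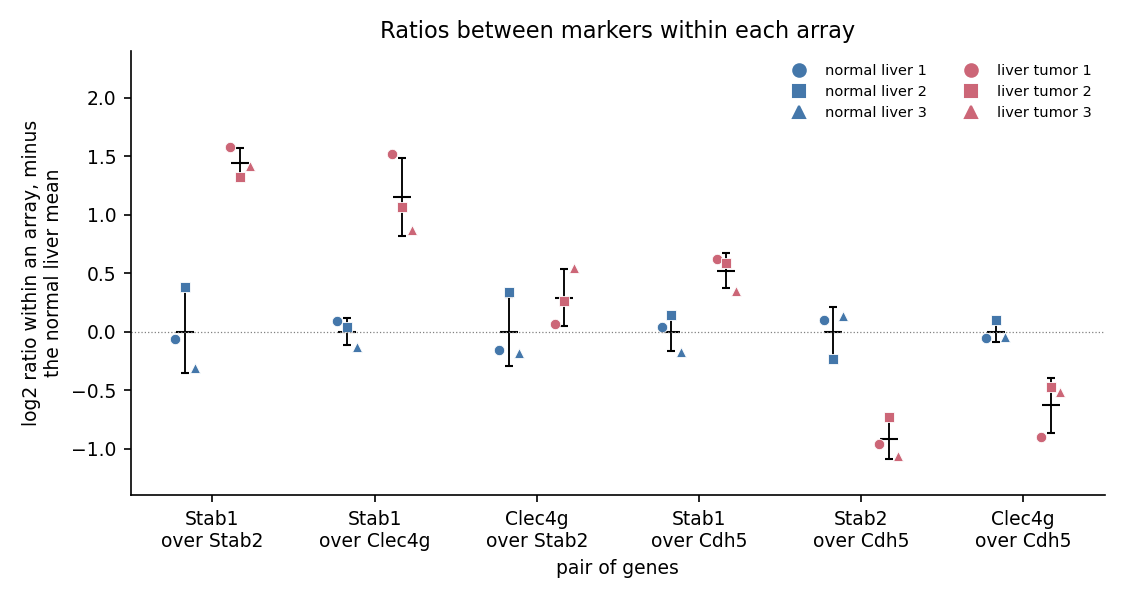
Ratios between markers on the same array. The vertical axis is the log2 ratio of the expression values of 2 genes minus its mean in the 3 normal livers, symbols are arrays, and ticks and bars are group means and SD (n = 3). Stab1 over Stab2 lies at 1.32 to 1.58 in the tumors, and the only pair whose groups overlap is Clec4g over Stab2.

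**Figure D4:**
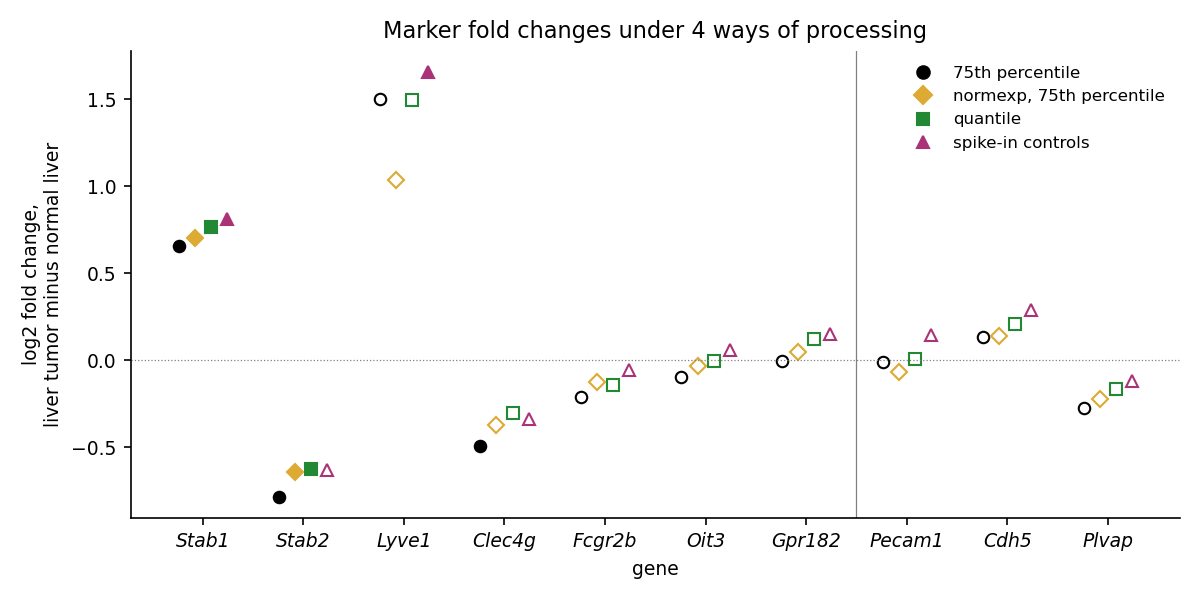
Fold changes of the 10 markers under 4 ways of processing. The vertical axis is the log2 fold change, tumor minus normal liver, and filled symbols had an adjusted p under 0.05 in limma. Stab1 was called in all 4, Stab2 in all but spike-in scaling, Clec4g only with the 75th percentile without normexp and Lyve1 only with spike-in scaling, and the values of Oit3, Gpr182 and Pecam1 cross 0.

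Other genes of sinusoidal endothelium were mostly not called, and those that were called were lower. Of 12 listed genes, 9 were tested, 3 were called lower and 0 higher, beside 21.0% and 13.1% of all genes tested. With so few genes, 3 of 9 is not far from that share. The median log2 fold change was -0.37, beside -0.13 for all genes. Rspo3, a secreted enhancer of Wnt signaling made by endothelium near the central vein, had values of 1.86, 2.28 and 2.34 in normal livers and 0.568, 0.721 and 1.001 in tumors. Its log2 fold change of -1.53 (SE 0.22, adjusted p = 0.00447) was larger in size than that of any called member among the 10. The other 2 called genes encode transcription factors of sinusoidal endothelium, Maf at -0.59 (adjusted p = 0.0123) and Gata4 at -0.73 (adjusted p = 0.0428). Neither was called with spike-in scaling, where their adjusted p values in limma were 0.248 and 0.110. Gata4 was also not called with quantile normalization (adjusted p = 0.0652) or with the replicate block, where Maf was called in both. Wnt2, Wnt9b and Tfec were too dim to be tested.

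Pan-endothelial genes beyond the 3 members were called higher more often than lower. All 22 listed genes were tested, 10 were called higher and 2 lower, beside 13.1% and 21.0% of all genes tested. The median log2 fold change was 0.38, and the count called higher was 5 without normal liver 1 and 6 without normal liver 3. Called higher were Ecscr at 0.83 (adjusted p = 0.00538), Emcn at 0.70 (adjusted p = 0.00996) and Sox18 at 0.69 (adjusted p = 0.0128), which encode an endothelial surface protein, the sialomucin endomucin and a transcription factor of vessel development. The call of Emcn was lost with normexp, at 0.15 and an adjusted p of 0.349. Called lower were Myct1 at -0.92 and Tie1, a receptor of the angiopoietin system, at -0.68, but a second probe of Myct1 gave 0.21 (adjusted p = 0.349) and Tie1 was not called with spike-in scaling (adjusted p = 0.135). Kdr, the main receptor for VEGF and a gene named here after its values were seen, had values of 31.2, 25.4 and 27.9 in normal livers and 28.8, 27.8 and 27.5 in tumors. Its groups overlapped, and like those of Pecam1 and Cdh5 its values in tumors lay within or near the range of the normal livers.

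Genes of capillarization and of growing vessels had the highest median of the lists examined. The lists were chosen with earlier results of these data known, so this ranking is only a description. Of 12 listed genes, 8 passed a stricter filter that asked for all 6 arrays. In this fit 1939 of all 16482 genes were called higher and 3753 lower. Of the 8, 5 were called higher and 0 lower, with a median log2 fold change of 0.76. Apln and Angpt2 passed the filter used elsewhere only through the tumors and are described apart from this count. The summed expression value of the 10 tested genes, Apln and Angpt2 included, was 20.7 to 21.2 in normal livers and 44.0 to 61.4 in tumors. The brightest probes weigh most in this sum, in the tumors those of Esm1 and Gpihbp1. Esm1, a secreted proteoglycan of endothelial tip cells, had values of 0.680, 0.445 and 0.530 in normal livers and 23.1, 10.7 and 23.0 in tumors, which is 5.04 on the log2 scale (SE 0.33, adjusted p = 3.0e-04). Cd34, a sialomucin of capillary endothelium that sinusoids largely lack, rose from 0.631 ± 0.153 to 3.50 ± 1.04 (SD, n = 3), which is 2.46 on the log2 scale (adjusted p = 0.00176). Unc5b, a netrin receptor of sprouting vessels, rose by 2.54 (adjusted p = 0.00114). Apln, the ligand apelin made by tip cells, did not stand well above background in the normal livers but did so in all 3 tumors, at least 3.29-fold higher. It was tested only because all 3 tumors passed, so no p-value is given for it.

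Col4a1 was called at 1.01 and Gpihbp1 at 0.51, which encode a basement membrane collagen and the protein that holds lipoprotein lipase on capillaries. Angpt2, a ligand of the angiopoietin system, was well above background in 2 of 3 normal livers and was tested only because all 3 tumors passed, at 1.74 on the log2 scale and 0.78 with normexp. The call of Gpihbp1 was lost with spike-in scaling (adjusted p = 0.0508). The 3 tested genes that were not called were Vwf, Col4a2 and Lama4, at -0.54, 0.51 and 0.30 on the log2 scale.

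**Figure D5:**
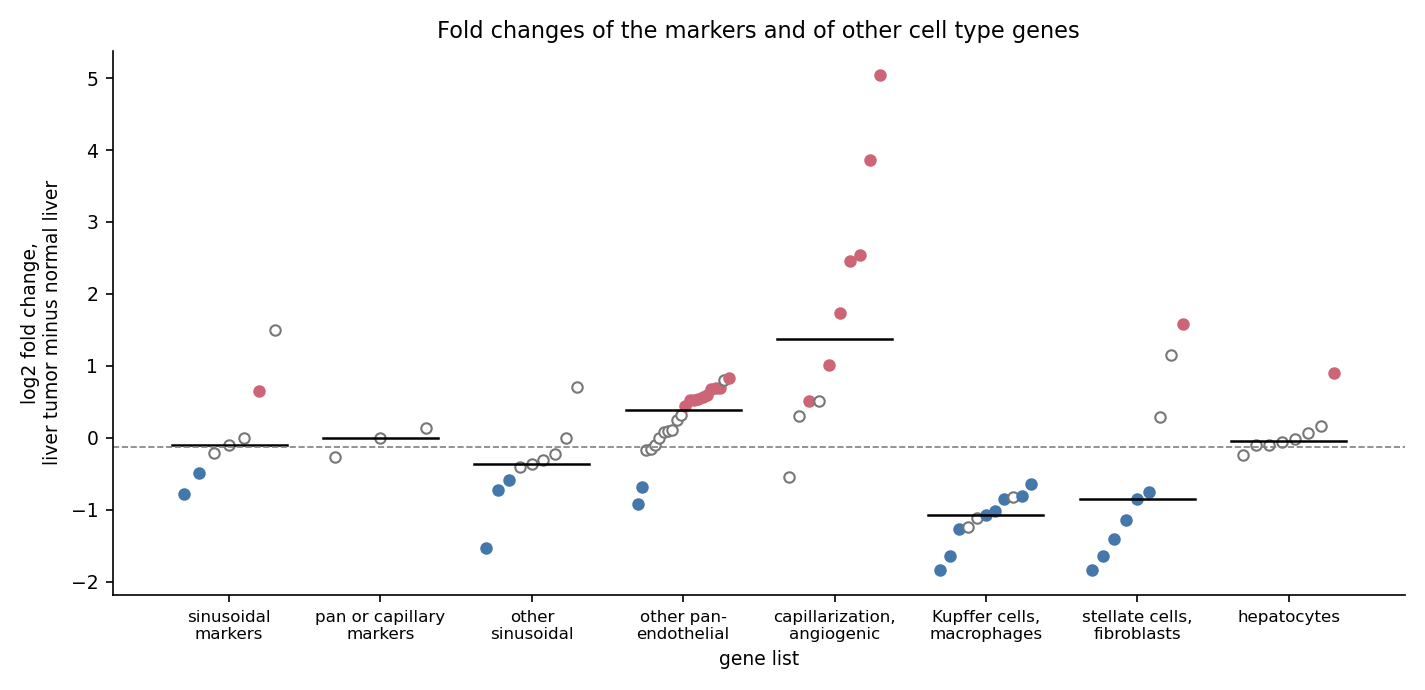
Fold changes of the 10 markers beside genes of other lists. The vertical axis is the log2 fold change, tumor minus normal liver (n = 3 each), each circle is a tested gene (Apln, Angpt2 and Des included), filled red or blue where it was called higher or lower and open where it was not. Black lines are the medians of the lists and the dashed line is the median of all genes, at -0.13. The capillarization list reaches 5.04 while the pan or capillary markers lie between -0.27 and 0.14.

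Macrophages share Stab1, Lyve1 and Fcgr2b with sinusoidal endothelium, and their own markers went down. Of 12 listed genes of Kupffer cells and macrophages, 11 were tested, with a median log2 fold change of -1.08. Of these, 8 were called lower and 0 higher, beside 21.0% and 13.1% of all genes tested. The count called lower was 4 with quantile normalization, 5 with spike-in scaling, 4 without normal liver 1, normal liver 3 or tumor 3, and 3 without tumor 2. Their summed expression value was 120 to 206 in normal livers and 62.9 to 104 in tumors. The 4 largest called changes were in Clec4f at -1.84, Timd4 at -1.65, Vsig4 at -1.27 and Cd5l at -1.08, all of them genes of resident Kupffer cells, and Cd163 was well above background in only 1 normal liver and in 0 tumors. The part of macrophages in the values of Stab1, Lyve1 and Fcgr2b was not tested.

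Stellate cells lie against the sinusoidal endothelium, and their genes also differed. Of 9 listed genes of stellate cells, pericytes and fibroblasts, 8 passed a stricter filter that asked for all 6 arrays. In this fit 3753 of all 16482 genes were called lower and 1939 higher. Of the 8, 5 were called lower and 2 higher, with a median log2 fold change of -0.95. Des passed the filter used elsewhere only through the normal livers. The summed expression value of all 9, Des included, was 88.4 to 106.6 in normal livers and 26.6 to 47.5 in tumors. Most of it came from the Dcn probe, with means of 83.2 in normal livers and 27.8 in tumors. Lrat, the enzyme with which stellate cells store vitamin A, was at -1.83 (adjusted p = 0.00233), Dcn at -1.64 and Lum at -1.41, whereas Col1a1 was higher at 1.58 (adjusted p = 0.0154). Their part in the values of the 10 markers was not tested.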

How the data were processed

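Total RNA of 3 normal livers and 3 liver tumors was hybridised to 6 arrays with 1 dye. The authors deposited, for each array, Feature Extraction output (version 10.7.3.1 in the file headers, 12.0.3.1 in the submitters' processing notes) with background-subtracted, detrended signal intensity, and a table of ratios, in which each intensity is divided by its array's 75th percentile. Here, log2 of the deposited processed intensity minus log2 of that percentile over all spots was used. Control and outlier spots were left out, spots of a probe were averaged, and probes had to be well above background on every array of at least 1 group, which left 24898 of 55681 to be tested with limma 3.58.1 in R 4.3.3 (lmFit, eBayes, two-sided, Benjamini-Hochberg, threshold 0.05). The brightest tested probe by mean over the 6 arrays stood for a gene. For a probe that failed this in all arrays of a group, the fold was taken against the higher, per array, of its own signal and the lowest signal well above background. Tables and figures were made in Python 3.11.15 (matplotlib 3.10.9, scipy 1.17.1, numpy 2.4.6, pandas 2.3.3).

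Names, positions and upstream sequences came from RefSeq annotation of GRCm38.p6, and 4 of the 10 genes matched an upstream sequence, of which bases inside the annotated gene were left out. Probe positions are those of the array design. All columns of the table of ratios were matched to samples. The 10 genes and the 9 other lists (88 genes) were chosen with earlier results of these data known. All probes of the 10 genes were named, and up to 4 called genes of each other list by size of change, with any defining gene not above background. The groups came from the sample titles. Nothing says whether a normal liver and a tumor came from the same animal. The p-values of the main fit set the group difference against the spread of arrays within groups and treat the 6 arrays as independent. Precision is limited by the number of arrays. The fit was tested on simulated data. Alternatives were normexp with offset 50, quantile normalization, spike-in scaling over 7 of 10 control probes, the 75th percentile over non-control probes, no filter, a filter requiring all 6 arrays, the deposited ratios, a replicate block, the mean of a gene's probes, eBayes with trend, the methods' t-test (paired and unpaired, adjusted or not), and each array left out.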

Additional observations from a re-analysis of the deposited data

How the results depend on the processing

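The slide of the arrays was the same within each tissue and cannot be separated from it, and the precision is limited by 3 arrays a group. The scaling matters because the median of all genes lay at -0.13. Under normexp 1 sinusoidal marker was called lower, and the sinusoidal minus pan or capillary median was 0.033 in place of -0.09. Under quantile normalization 1 was called lower. With spike-in scaling 0 were called lower and 2 higher (Stab1 and Lyve1), the medians were 0.058 for sinusoidal and 0.15 for pan or capillary markers, and 1576 genes were called lower in place of 3905, with 60.1% of the called genes higher in place of 38.5%. Without a filter 0 markers were called lower and 0 higher, and 1890 genes lower and 1620 higher, over more genes tested. With the mean of a gene's probes 1 was called lower (Clec4g). The methods' t-test with adjustment called 0 lower and 0 higher unpaired, with 1372 genes higher over the array, and 0 and 0 paired, with 0 genes lower and 0 higher over the array. The unadjusted paired form called 0 markers higher and did not call Stab2, but called Clec4g and Fcgr2b lower. The cause of these changes was not tested, except that the mean of probes adds 2 Stab2 probes that were level.

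Gpr182 changed sign to 0.049 under normexp, 0.12 under quantile normalization, 0.15 with spike-in scaling, 0.0049 with the percentile over non-control probes and 0.0016 in the 4 forms of the t-test. Oit3 changed sign to 0.058 with spike-in scaling, and Pecam1 to 0.0043 under quantile normalization, 0.15 with spike-in scaling and 3.0e-05 with the percentile over non-control probes. With 1 array left out, 1 to 2 sinusoidal markers were called lower and 0 to 1 higher, Gpr182 ranged from -0.084 to 0.10 and Pecam1 from -0.042 to 0.022, and 2010 to 3343 genes were called lower and 1862 to 2191 higher over the array. The count of genes called lower was 2010 without normal liver 2 and 2587 without normal liver 3. By its brightest probe or the mean of its probes, no pan or capillary marker was called under any alternative run.

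The deviations of same-numbered arrays correlated at 0.07, 0.18 and 0.05, and those of differently numbered arrays at -0.20 to 0.10. With so few arrays this cannot decide whether the replicate numbers pair the samples. With the replicate block Stab1 (adjusted p = 0.0367), Stab2 (0.0474) and Clec4g (0.0361) were still called, and 3204 genes were called lower and 2213 higher.

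Of 360 counts of called genes of the other lists under the alternatives, 306 were within 1.5 times of the main count. Of the rest, 35 were smaller and 19 larger. A main count of 0, as for bile duct cells in both directions, cannot become smaller. Such counts are among the 360, so the share within 1.5 times says little about the stability of the calls. Without a filter the genes called lower were 3 in place of 8 for Kupffer cells and 1 in place of 3 for other sinusoidal genes, and those called higher 3 in place of 10 for other pan-endothelial genes. The methods' t-test with adjustment, unpaired, called 2 Kupffer genes lower and 2 in place of 7 capillarization genes higher. The 7 include Apln and Angpt2, which passed the filter only through the tumors.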

Other observations

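Lymphatic endothelium and B lymphocytes share Lyve1 or Fcgr2b with the sinusoids, and several of their own genes were not well above background. Of 4 lymphatic genes 2 were tested. Reln was called higher in limma at 0.72 (adjusted p = 0.0214), but not with normexp (adjusted p = 0.175). Prox1, which hepatocytes also express, was not called at -0.70 (adjusted p = 0.0589). Prox1 was called lower in some alternative runs, among them the filter requiring all 6 arrays, eBayes with trend and the run without normal liver 1. Mmrn1 was well above background on 0 arrays and Pdpn in 2 normal livers and 1 tumor, and the summed value of the tested genes was 1.74 to 3.003 in normal livers and 1.68 to 1.90 in tumors. The part of lymphatic vessels in the value of Lyve1 was not tested.

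Of the 2 B lymphocyte genes that were tested 0 were called in the main fit with limma, and 1, Cd79a, had an unadjusted p under 0.05. Cd79a was called higher in some alternative runs of limma. Among them were spike-in scaling (adjusted p = 0.0101), the filter requiring all 6 arrays, the replicate block and the run without normal liver 1. Of 5 genes of bile duct cells 3 were tested and 0 called, and 0 had an unadjusted p under 0.05. Of 8 hepatocyte genes all were tested, and 1 was called, Apoa1 at 0.90 (adjusted p = 0.00565), with a summed value of 8754 to 9674 in normal livers and 8896 to 9431 in tumors.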
